A study of Mus musculus with 16 samples.

Results

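Genes of cholesterol and fatty acid synthesis were followed in primary mouse mammary fibroblasts. A list of 37 genes was matched to the deposited table by gene symbol, and 33 of them were found among its 18132 genes. HMGCS1, FDFT1, MVK and ACACA were not analysed here, and the sterol oxidase MSMO1 stands in the table under its older symbol SC4MOL. By role, 5 of the 33 members act in the mevalonate steps, 10 in the squalene and sterol steps, 5 in regulation, 9 in fatty acid synthesis, elongation and desaturation, and 4 in sterol transport or as targets of the oxysterol receptor LXR.

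The fibroblasts came from inguinal mammary glands of female mice of strain 129S6, aged 8 to 10 weeks, that were MEKK1+/+ or MEKK1-/-, and were grown in DMEM with fetal serum. MEKK1 is a kinase of the MAP kinase cascades and is encoded by MAP3K1. Cultures received growth medium (untreated) or conditioned medium, which was growth medium harvested from cultures of the human breast cancer line MDA-MB-231, for 8 h. Each of the 4 combinations had 4 arrays of the Illumina Mouse 8 type. The study had 3 mice per genotype and does not tie a culture to a mouse, so the errors below describe the spread between cultures, some of which share a mouse. The comparisons ask how fibroblasts respond to factors from tumor cells and whether MEKK1 alters that response.

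Sterols are built from acetyl-CoA through mevalonate, farnesyl diphosphate and squalene, which is closed to lanosterol and then trimmed to cholesterol. The transcription factors SREBF1 and SREBF2 (SREBP-1 and SREBP-2) drive most genes of the pathway. SCAP carries them from the endoplasmic reticulum to the Golgi for activation when sterols are low, and INSIG1 and INSIG2 hold SCAP back when sterols are high. LXR, which binds oxysterols, drives export genes such as ABCA1 and ABCG1.

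SREBPs act at promoters together with NF-Y, which binds CCAAT, and Sp1, which binds GC boxes. The 250 bases before the start are therefore shown for those members whose level changed with conditioned medium in at least 1 genotype and that the RefSeq table (GRCm38.p6) holds. That was 4 of 7 such members, CYP51, NSDHL, INSIG1 and INSIG2, and for INSIG2 the table lists 3 starts, of which the first listed is shown. Sequences run 5′ to 3′ on the gene's strand, and capitals mark CCAAT or its reverse complement ATTGG.
CYP51: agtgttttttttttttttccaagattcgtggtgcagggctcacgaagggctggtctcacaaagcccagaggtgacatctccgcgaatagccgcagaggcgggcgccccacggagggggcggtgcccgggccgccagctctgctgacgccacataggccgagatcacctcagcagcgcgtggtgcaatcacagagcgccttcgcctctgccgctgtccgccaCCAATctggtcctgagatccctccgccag
NSDHL: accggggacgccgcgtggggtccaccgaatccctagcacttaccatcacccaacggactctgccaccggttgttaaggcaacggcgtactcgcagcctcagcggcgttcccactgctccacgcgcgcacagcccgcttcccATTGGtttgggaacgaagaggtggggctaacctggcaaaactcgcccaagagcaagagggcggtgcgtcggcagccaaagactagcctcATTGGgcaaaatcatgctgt
INSIG1: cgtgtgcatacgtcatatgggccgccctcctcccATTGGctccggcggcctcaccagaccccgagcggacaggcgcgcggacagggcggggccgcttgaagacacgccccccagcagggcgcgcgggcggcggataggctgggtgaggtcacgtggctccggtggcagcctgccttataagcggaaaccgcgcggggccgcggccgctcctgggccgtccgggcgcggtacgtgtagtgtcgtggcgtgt
INSIG2: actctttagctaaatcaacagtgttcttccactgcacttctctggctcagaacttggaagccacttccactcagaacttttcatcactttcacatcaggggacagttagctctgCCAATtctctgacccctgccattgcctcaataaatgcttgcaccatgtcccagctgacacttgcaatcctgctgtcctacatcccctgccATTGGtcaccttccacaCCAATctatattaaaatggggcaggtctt

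The windows lie at chr5:4104698-4104947 (minus strand) for CYP51, chrX:72918271-72918520 (plus strand) for NSDHL, chr5:28071162-28071411 (plus strand) for INSIG1 and chr1:121332590-121332839 (minus strand) for INSIG2. CYP51 held 1 CCAAT box, which ended 25 bases before its start, NSDHL held 2, INSIG1 held 1 and INSIG2 held 3. Of the 33 members, 26 had a window in the table. CCAAT was found on either strand in 20 of these 26 members (76.9%) and in 37.5% of the 27025 genes of the table. GGGCGG was found in 22 of 26 (84.6%) and in 35.4% of all genes. TCACNCCAC, a form of the sterol response element, was found in 0 of 26 members and in 1.22% of all genes. None of these motifs holds another one, these shares are descriptions without a test, and a match is not a measured binding site.

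Expression is given as log2 intensity after quantile normalization between arrays, a scale on which a difference of 1 is a doubling. As a level without signal, the 99th percentile of 1075 olfactory receptor genes was taken on each array. On all 16 arrays, 27 of the 33 members lay above it. TM7SF2 passed it on 9 arrays, SREBF1 on 4, FASN on 5 and ABCG1 on 11, and ABCA1 and MYLIP on 0. In the MEKK1+/+ groups and in the groups labelled MEKK1-/- alike, 10 of 12 fibroblast markers were above it on every array, while 6 of 9 fat cell markers, ADIPOQ and FABP4 among them, were above it on 0 arrays and LPL, at a mean of 12.84, on all 16.

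Some arrays stood apart before any comparison. MAP3K1, the targeted gene, read 7.95, 7.77, 7.60 and 7.51 on the untreated MEKK1+/+ arrays and 8.06, 8.31, 8.17 and 8.41 on the untreated arrays labelled MEKK1-/-. It was 7.42, 7.71, 8.18 and 7.64 with conditioned medium in MEKK1+/+ and 8.08, 7.79, 8.29 and 8.13 with conditioned medium on arrays labelled MEKK1-/-. MAP3K1 was thus not lower under the knockout label, with a log2 difference of 0.53 ± 0.15 (SE, limma adjusted p = 0.465) in untreated cells. Where its probe lies relative to the deleted part is not given in the sources used here, so the genotype rests on the labels. The mean of 9 epithelial markers was 9.19 on both arrays numbered 1 under the MEKK1-/- label and between 7.05 and 7.60 on the other arrays. In bulk RNA, fewer cells of a type and less RNA per cell cannot be told apart.

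**Figure D1:**
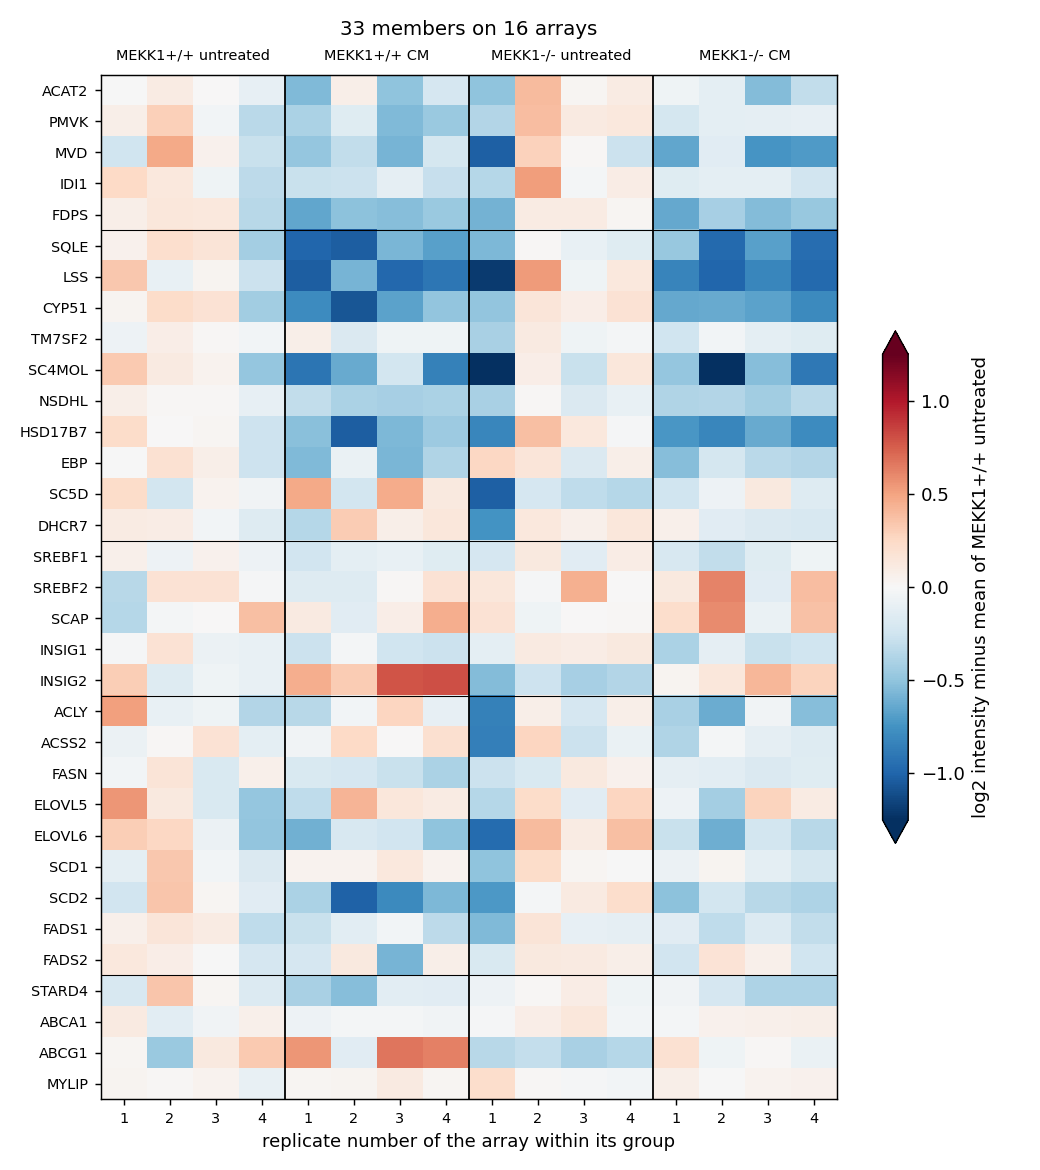
Each cell is the log2 intensity of a member (rows, ordered by role) on an array (columns, 4 per group), minus that gene's mean over the 4 untreated MEKK1+/+ arrays, with blue lower and red higher. Most sterol rows from FDPS to EBP, TM7SF2 aside, turn blue in both conditioned groups (CM), INSIG2 turns red, and the untreated array numbered 1 under the MEKK1-/- label is blue in most rows.

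In MEKK1+/+ fibroblasts, 4 of 15 genes of the sterol synthesis steps fell with conditioned medium and 13 had lower means. Of the 33 members, 24 had a lower mean with conditioned medium, and the median log2 difference was -0.20, against -0.002 over all 18132 genes. Past the threshold of 0.05 for limma p values adjusted over all genes, 5 members fell, FDPS, SQLE, CYP51, NSDHL and SCD2, where 2.75% of all genes did. In the other direction 1 member rose, INSIG2, where 2.27% of all genes did. The 4 arrays of each group did not overlap for 9 members that were lower, against 5.02% of all genes, and for 1 that was higher, against 4.68%. The 9 were FDPS, SQLE, LSS, CYP51, NSDHL, HSD17B7, SREBF1, FASN and SCD2. Many of all genes had no signal. Of the 6923 genes above background on all arrays, 427 fell and 305 rose, and arrays did not overlap for 602 as lower and 505 as higher. Of the 27 members above background, 5 fell and 1 rose, and arrays did not overlap for 7 and 1.

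In fibroblasts labelled MEKK1-/-, the means moved in a like manner but fewer members passed. A lower mean was seen for 27 of 33 members, with a median of -0.17 against -0.004 over all genes. CYP51 and INSIG1 fell, where 2.51% of all genes did, and INSIG2 rose, where 2.18% did. Arrays did not overlap for 2 members that were lower, CYP51 and EBP (5.53% of all genes), and for 2 that were higher, INSIG2 and ABCG1 (4.9% of all genes). Of the 6923 genes above background on all arrays, 381 fell and 310 rose, and arrays did not overlap for 716 as lower and 580 as higher. Of the 27 members above background, 2 fell and 1 rose, and arrays did not overlap for 2 and 1. These counts are therefore not read as an excess. The labels do not pair these arrays, but their replicate numbers were taken as pairs after a check on these same data. With the number as a block within genotype CYP51, EBP and INSIG1 fell (3.91% of all genes) and SC5D, INSIG2 and ABCG1 rose (4.02% of all genes).

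The count under the MEKK1-/- label rested on single arrays. Without the untreated array numbered 1, which carried the epithelial markers, 8 members fell, FDPS, SQLE, LSS, CYP51, NSDHL, HSD17B7, INSIG1 and ELOVL6, and INSIG2 rose. In that fit 2.2% of all genes fell, and 706 genes passed in either direction. With both arrays numbered 1 left out, 8 fell as well, with SC4MOL among them (-0.89, adjusted p = 0.0492) and ELOVL6 not (-0.69, adjusted p = 0.0596). Of all genes 2.27% fell in that fit, and 768 passed in either direction. Without the untreated arrays numbered 2 or 4, or the conditioned arrays numbered 3 or 4, INSIG2 alone passed.

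**Figure D2:**
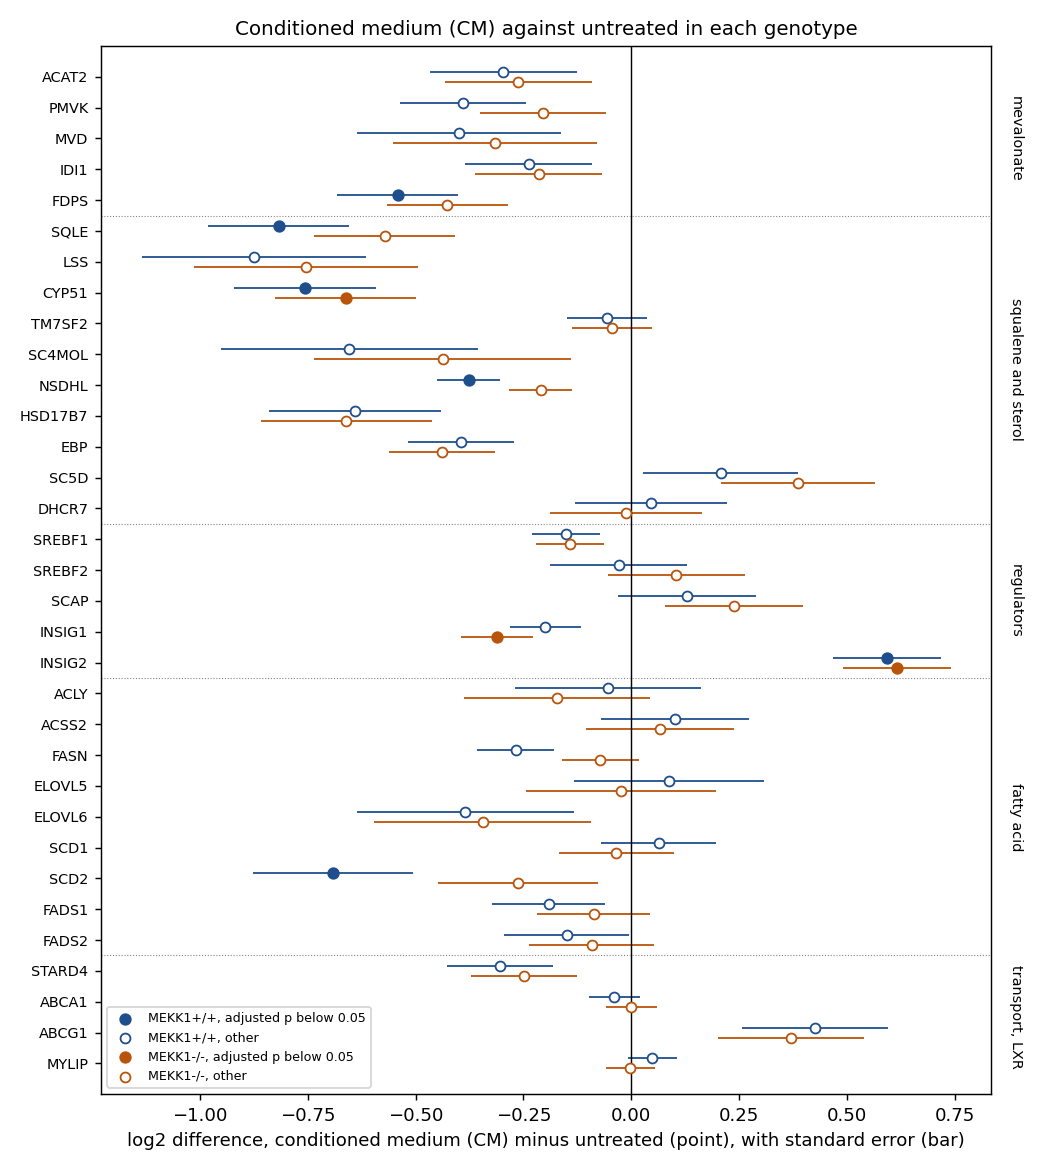
Points are log2 differences, conditioned (CM) minus untreated, of the 33 members in MEKK1+/+ (blue) and under the MEKK1-/- label (orange), bars are standard errors from limma, and filled points passed an adjusted p of 0.05. The genes from ACAT2 to CYP51 lie left of 0 in both genotypes, from -0.87 for LSS to -0.24 for IDI1 in MEKK1+/+, SC5D lies right of 0 at 0.21 and 0.39, and INSIG2 lies at 0.59 and 0.62.

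The mevalonate steps lead from acetyl-CoA to farnesyl diphosphate. All 5 measured members, ACAT2, PMVK, MVD, IDI1 and FDPS, had lower means with conditioned medium in both genotypes, with a median log2 difference of -0.39 in MEKK1+/+ and -0.26 under the MEKK1-/- label. FDPS was the member that passed the threshold, in MEKK1+/+. The others ranged from -0.40 (MVD) to -0.24 (IDI1) in MEKK1+/+ and from -0.32 to -0.20 under the MEKK1-/- label.

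FDPS makes farnesyl diphosphate, the branch point to sterols, dolichol and protein prenylation. It read 13.30, 13.37, 13.36 and 12.88 on the untreated MEKK1+/+ arrays and 12.58, 12.71, 12.69 and 12.76 with conditioned medium. Every untreated array was above every conditioned array. The log2 difference was -0.54 ± 0.14 (SE, n = 4 against 4), which is 1.46-fold lower (limma adjusted p = 0.036). This call was lost in 8 of 16 fits that left out 1 array, among them each fit without a conditioned MEKK1+/+ array (adjusted p = 0.0642 to 0.0859), with differences from -0.56 to -0.50 in those 8. On arrays labelled MEKK1-/- FDPS read 12.64, 13.33, 13.33 and 13.25 untreated and 12.59, 12.82, 12.69 and 12.76 with conditioned medium. There 3 untreated arrays stood above all conditioned arrays and the array numbered 1 lay among them, so that the difference of -0.43 ± 0.14 did not pass (adjusted p = 0.108). Without that array it was -0.59 (adjusted p = 0.00488).

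The squalene and sterol steps showed the larger differences. In MEKK1+/+, 8 of 10 members had lower means with conditioned medium, with a median of -0.52, and SQLE, CYP51 and NSDHL fell. In cells labelled MEKK1-/-, 9 of 10 had lower means, with a median of -0.44, and CYP51 fell. Over the 15 members of both sets of steps, 13 and 14 had lower means, and the medians were -0.39 and -0.32.

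SQLE, squalene epoxidase, adds the oxygen that allows the ring to close and is a rate-limiting enzyme of the pathway. Its values on untreated MEKK1+/+ arrays were 10.97, 11.12, 11.07 and 10.49, and with conditioned medium they were 9.92, 9.88, 10.34 and 10.24. The groups did not overlap, and the difference was -0.82 ± 0.16, or 1.76-fold lower (adjusted p = 0.00891). Under the MEKK1-/- label SQLE read 10.35, 10.92, 10.82 and 10.76 untreated and 10.43, 9.94, 10.23 and 9.96 with conditioned medium. The arrays numbered 1 overlapped the other group, and the difference of -0.57 ± 0.16 had an adjusted p of 0.0604.

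LSS, lanosterol synthase, closes the ring. It read 10.47, 10.04, 10.17 and 9.87 in untreated MEKK1+/+ cells and 9.10, 9.56, 9.15 and 9.24 with conditioned medium. These groups did not overlap, and the difference of -0.87 ± 0.26, whose error is pooled over all 4 groups, had an adjusted p of 0.0695. The SD was 0.256 and 0.204 in these groups and 0.740 in the untreated group labelled MEKK1-/-. Of those labelled MEKK1-/-, the untreated arrays read 8.95, 10.67, 10.08 and 10.27 and the conditioned arrays 9.31, 9.15, 9.33 and 9.16. The untreated array numbered 1 was the lowest of all 16, and the difference was -0.75 ± 0.26 (adjusted p = 0.13) with it and -1.10 (adjusted p = 0.00138) without it.

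CYP51 removes a methyl group from lanosterol and is the step that azole drugs block in fungi. Its values were 10.16, 10.35, 10.31 and 9.69 in untreated MEKK1+/+ cells and 9.34, 9.06, 9.46 and 9.63 with conditioned medium. In cells labelled MEKK1-/- they were 9.64, 10.29, 10.21 and 10.31 untreated and 9.49, 9.50, 9.46 and 9.34 with conditioned medium. CYP51 was the sterol enzyme that fell in both genotypes, by -0.76 ± 0.16 (1.69-fold lower, adjusted p = 0.0147) and -0.66 ± 0.16 (1.58-fold lower, adjusted p = 0.0315), with no overlap between the groups of either. The first call was lost without the untreated MEKK1+/+ arrays numbered 2 or 3 (adjusted p = 0.0524 and 0.055), and the second in 6 of 16 such fits, without any of the arrays numbered 2 to 4 of both groups under the MEKK1-/- label (adjusted p = 0.0671 to 0.104). The promoter window of CYP51 above holds a CCAAT box close to the start. Windows of 20 of 26 members hold one, INSIG2, which rose, among them, and its part in the fall was not tested.

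NSDHL, a dehydrogenase that helps to remove the methyl groups at carbon 4, lies on the X chromosome. It read 7.92, 7.87, 7.87 and 7.74 in untreated MEKK1+/+ cells and 7.54, 7.46, 7.44 and 7.45 with conditioned medium. The groups did not overlap, and the difference, smaller than that of SQLE but with a narrow spread, was -0.38 ± 0.07 (1.30-fold lower, adjusted p = 0.00741). Under the MEKK1-/- label the values were 7.45, 7.86, 7.67 and 7.75 untreated and 7.48, 7.49, 7.42 and 7.51 with conditioned medium, with the untreated array numbered 1 inside the conditioned range and a difference of -0.21 ± 0.07 (adjusted p = 0.129).

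Among the other sterol enzymes, HSD17B7, the ketoreductase that works beside NSDHL, had differences of -0.64 ± 0.20 (adjusted p = 0.0823) and -0.66 ± 0.20 (adjusted p = 0.0756), without overlap in MEKK1+/+. SC4MOL had -0.65 ± 0.30 and -0.44 ± 0.30, and EBP, a sterol isomerase, -0.39 ± 0.12 and -0.44 ± 0.12. SC5D, the desaturase of a late step, went the other way, with 0.21 ± 0.18 and 0.39 ± 0.18, and passed under the MEKK1-/- label with the block (adjusted p = 0.0487). DHCR7, the last reductase, stood at 0.04 ± 0.18 and -0.01 ± 0.18, and TM7SF2, near background, at -0.06 and -0.05.

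The sterol genes varied together between cultures of a group. After group means were removed, the median Pearson correlation over the 91 pairs of the 14 sterol genes above background was 0.634 across 16 arrays, which share their library and scaling. No such value was computed for other genes, and the 16 arrays include the low untreated array numbered 1 under the MEKK1-/- label. The mean over the 15 sterol genes was 9.87, 9.89, 9.82 and 9.51 in untreated MEKK1+/+ cells and 9.29, 9.37, 9.38 and 9.40 with conditioned medium. On arrays labelled MEKK1-/- it was 9.13, 9.98, 9.73 and 9.78 untreated and 9.36, 9.34, 9.35 and 9.28 with conditioned medium. The untreated array numbered 1 was the lowest of all, and it was 1 of the 2 arrays with the epithelial markers. The other, with conditioned medium, lay within its group, and the part of the epithelial signal in these values was not tested.

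**Figure D3:**
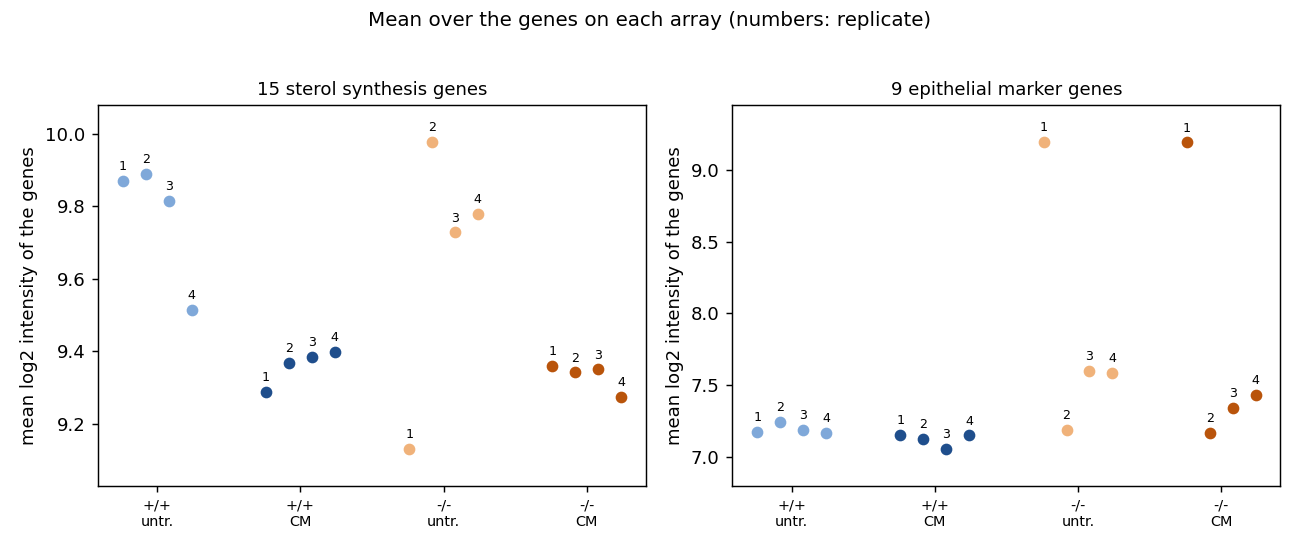
Points are means of log2 intensity on each array, over 15 sterol synthesis genes (left) and 9 epithelial marker genes (right), with the replicate number beside each point. The sterol means of the conditioned arrays lie between 9.28 and 9.40, and the arrays numbered 1 under the MEKK1-/- label carry epithelial means of 9.19.

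Of the 5 regulators, both INSIG genes changed, in opposite directions, and SREBF1, SREBF2 and SCAP did not pass in limma in either genotype. The test on z-scores that the study's methods name called SREBF1 in MEKK1+/+ (adjusted p = 0.0153). The share of all genes called by that test is not given here, so this call is not read as a change. INSIG2 read 9.21, 8.75, 8.85 and 8.82 in untreated MEKK1+/+ cells and 9.37, 9.23, 9.69 and 9.72 with conditioned medium. In cells labelled MEKK1-/- it read 8.36, 8.65, 8.49 and 8.54 untreated and 8.94, 9.05, 9.33 and 9.19 with conditioned medium. In each genotype every conditioned array was above every untreated array. The rise was 0.59 ± 0.12 (1.51-fold, adjusted p = 0.0123) in MEKK1+/+ and 0.62 ± 0.12 (1.53-fold, adjusted p = 0.0103) under the MEKK1-/- label. The lack of overlap fixes the exact 2-sided permutation p of 4 against 4 arrays at 0.0286, so that p adds nothing to it. INSIG2 passed in each of the 16 fits that left out 1 array, in both genotypes. On values as deposited it did not pass, with 0.20 (adjusted p = 0.495) and 0.56 (adjusted p = 0.972), where the median of all genes moved by -0.28 and -0.02. With arrays shifted to the same median it did not pass either, with 0.49 (adjusted p = 0.169) and 0.56 (adjusted p = 0.159), nor in MEKK1+/+ with only the 2 groups compared in the fit (0.61, adjusted p = 0.0565).

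INSIG1, the regulator that is itself a target of SREBPs, read 8.08, 8.27, 8.02 and 8.01 in untreated MEKK1+/+ cells and 7.83, 8.07, 7.85 and 7.83 with conditioned medium. Under the MEKK1-/- label it read 7.98, 8.20, 8.19 and 8.22 untreated and 7.70, 7.98, 7.82 and 7.84 with conditioned medium. The array numbered 2 of each conditioned group was its highest, and groups overlapped in both genotypes. The difference was -0.20 ± 0.08 (adjusted p = 0.218) in MEKK1+/+ and -0.31 ± 0.08 (1.24-fold lower, adjusted p = 0.0431) under the MEKK1-/- label. The latter call was lost in 11 of 16 fits that left out 1 array, with differences from -0.37 to -0.27.

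SREBF1 was close to background and read 7.27, 7.14, 7.26 and 7.14 in untreated MEKK1+/+ cells and 6.96, 7.08, 7.11 and 7.05 with conditioned medium. On arrays labelled MEKK1-/- it read 6.99, 7.32, 7.06 and 7.30 untreated and 7.0, 6.89, 7.05 and 7.15 with conditioned medium. The groups did not overlap in MEKK1+/+ and overlapped under the MEKK1-/- label, with differences of -0.15 ± 0.08 (adjusted p = 0.365) and -0.14 ± 0.08 (adjusted p = 0.421). SREBF2 had -0.03 ± 0.16 and 0.10 ± 0.16, and SCAP 0.13 ± 0.16 and 0.24 ± 0.16.

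INSIG1 was used to look for genes of a like pattern. Over the 16 arrays, less the group means, the highest Pearson correlations among 6922 genes above background were those of VEGFB (0.885), CRABP2 (0.868), PFDN5 (0.853), ZFP213 (0.852) and GRCC10 (0.844). These are descriptions of how arrays varied within groups.

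The fatty acid genes moved less than the sterol genes. In MEKK1+/+, 6 of 9 had lower means with conditioned medium, with a median of -0.15, and SCD2 fell. In cells labelled MEKK1-/- 8 of 9 had lower means, with a median of -0.09, and 0 passed in limma, at an unadjusted p under 0.05 as well as in the test on z-scores. SCD2, a stearoyl-CoA desaturase, read 9.54, 10.12, 9.79 and 9.63 in untreated MEKK1+/+ cells and 9.38, 8.76, 8.97 and 9.21 with conditioned medium. The groups did not overlap, and the difference was -0.69 ± 0.19 (1.62-fold lower, adjusted p = 0.0439). Under the MEKK1-/- label it read 9.05, 9.75, 9.88 and 9.99 untreated and 9.26, 9.54, 9.43 and 9.39 with conditioned medium, a difference of -0.26 ± 0.19 (adjusted p = 0.573). The call in MEKK1+/+ was lost in 11 of 16 fits that left out 1 array, with differences from -0.79 to -0.57.

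ELOVL6, which elongates palmitate to stearate, read 9.46, 9.41, 9.08 and 8.65 in untreated MEKK1+/+ cells and 8.54, 8.95, 8.91 and 8.65 with conditioned medium. On arrays labelled MEKK1-/- it read 8.19, 9.55, 9.25 and 9.52 untreated and 8.87, 8.54, 8.92 and 8.80 with conditioned medium. The groups overlapped in both, with differences of -0.39 ± 0.25 (adjusted p = 0.519) and -0.34 ± 0.25 (adjusted p = 0.594). SCD1, the other measured desaturase of this type, stood at 0.06 ± 0.13 and -0.03 ± 0.13. ACLY, which makes cytosolic acetyl-CoA, had -0.05 ± 0.22 and -0.17 ± 0.22. FASN, fatty acid synthase, was near background on most arrays and had -0.27 ± 0.09 (adjusted p = 0.11) and -0.07 ± 0.09. ACSS2, ELOVL5, FADS1 and FADS2 lay between -0.19 and 0.10 in MEKK1+/+ and between -0.09 and 0.07 under the MEKK1-/- label.

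**Figure D4:**
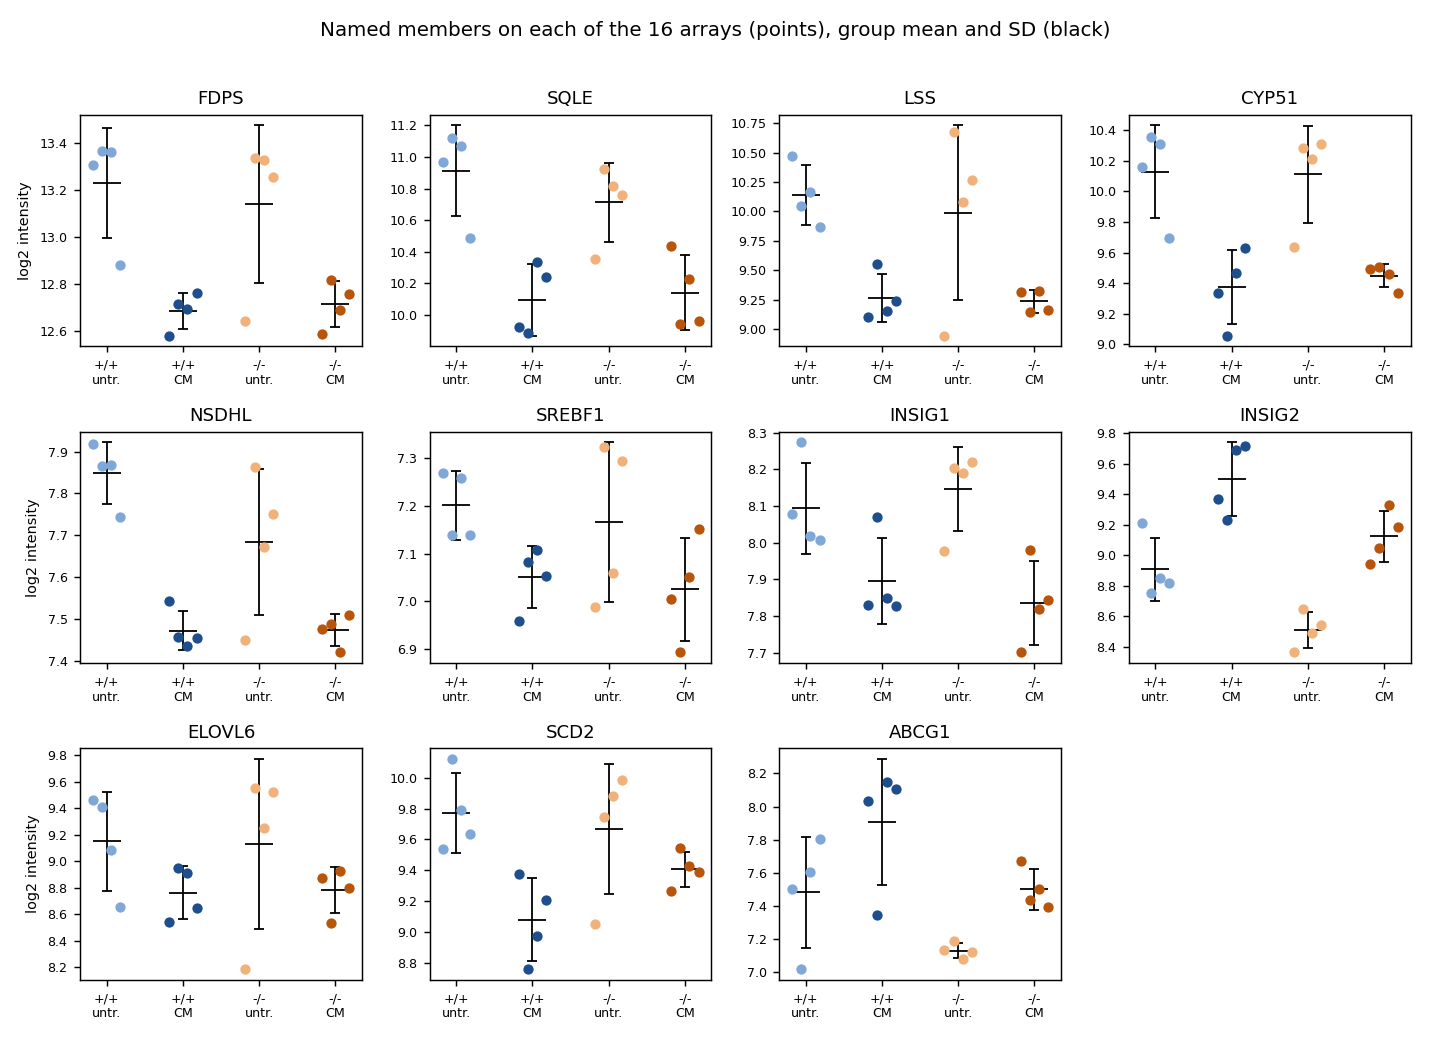
Points are log2 intensities of 11 members on the 4 arrays of each group, and black marks are group means with SD. Untreated and conditioned points separate for INSIG2 and CYP51 in both genotypes, and 1 low untreated point under the MEKK1-/- label recurs in FDPS, LSS, CYP51, NSDHL, ELOVL6 and SCD2.

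Of the transport and LXR genes, ABCG1, which exports cholesterol, was the member with the largest difference. It read 7.50, 7.02, 7.60 and 7.81 in untreated MEKK1+/+ cells and 8.04, 7.34, 8.15 and 8.11 with conditioned medium. In cells labelled MEKK1-/- it read 7.13, 7.19, 7.08 and 7.12 untreated, all below background, and 7.67, 7.43, 7.50 and 7.39 with conditioned medium. The arrays numbered 2 were the lowest of both MEKK1+/+ groups. Their means over 16 macrophage markers were also the lowest of these groups, at 8.73 untreated and 8.86 with conditioned medium, where the other MEKK1+/+ arrays lay between 9.50 and 9.73, and the part of this signal in ABCG1 was not tested. The differences were 0.43 ± 0.17 (adjusted p = 0.195) and 0.37 ± 0.17 (adjusted p = 0.292), and both passed with the block within genotype (adjusted p = 0.0059 and 0.0114), although the replicate numbers did not meet the rule for pairs in MEKK1+/+. STARD4, a carrier of sterols between membranes, had -0.30 ± 0.12 and -0.25 ± 0.12. ABCA1, an exporter of cholesterol, and MYLIP, a ubiquitin ligase, had only background signal.

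The scale of the arrays bears on all of these values. As deposited, the median of all genes moved by -0.28 with conditioned medium in MEKK1+/+, and 31 of 33 members had lower means there, with a median of -0.55. A lower mean was also found for 17332 of all 18132 genes, so the count of 31 is near the share of all genes. In that comparison 5 members passed as lower, SQLE, CYP51, NSDHL, EBP and SCD2, and 0 as higher, and in the comparison under the MEKK1-/- label 0 members passed in limma. Of all 18132 genes, 763 passed as lower and 32 as higher in MEKK1+/+, and 11 and 34 under the MEKK1-/- label.

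The genotypes were then compared within each condition. In untreated cells 0 members passed in limma, as did 0% of all genes, and 3 of 33, NSDHL, SC5D and INSIG2, had an unadjusted p under 0.05, as did 9.27% of all genes. All 3 were lower under the MEKK1-/- label. INSIG2 had a difference of -0.40 ± 0.12 (1.32-fold lower, adjusted p = 0.465) and was the 1 member whose arrays did not overlap as lower, against 2.01% of all genes, with 0 as higher, against 2.59%. That lack of overlap fixes its exact permutation p at 0.0286. SC5D had -0.47 ± 0.18 (adjusted p = 0.499) and NSDHL -0.17 ± 0.07 (adjusted p = 0.521). The test on z-scores called 1 member, INSIG2 (adjusted p = 0.0454), which limma did not call. The share of all genes in that test is not given, so no genotype effect is read from it. The median over the members was -0.07, and 0.02 without the untreated array numbered 1 under the MEKK1-/- label.

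With conditioned medium, 0 members passed between genotypes in limma, against 0.00552% of all genes, and INSIG2 and ABCG1 had an unadjusted p under 0.05, against 8.09% of all genes. INSIG2 had a difference of -0.37 ± 0.12 (adjusted p = 0.538) and ABCG1 of -0.41 ± 0.17 (adjusted p = 0.581). Arrays did not overlap for SCD1 as lower (1.85% of all genes) and for FASN as higher (2.33% of all genes), with differences of -0.16 ± 0.13 and 0.12 ± 0.09. FASN was above background on 0 arrays of either conditioned group, so its difference is between values without signal. The test on z-scores called 1 member, ACSS2 (adjusted p = 0.0273), again without a share of all genes beside it, so no genotype effect is read from this call. The mean of macrophage markers was lower under the MEKK1-/- label in both conditions, with 14 of 16 markers lower and median differences of -0.78 and -0.78. In limma 0 of these markers passed in either condition, and 3 of the 16 were above background on 0 arrays. The SD of their mean between the arrays of a group was 0.38 to 0.63. The part of this macrophage signal in the values of the members was not tested.

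The response to conditioned medium did not differ detectably between the genotypes for any member. The interaction gave 0 members past the threshold, as 0% of all genes, and 0 members with an unadjusted p under 0.05, against 2.61% of all genes. The test on z-scores called 0 members. The median of the interaction was 0.04, and the largest estimate was that of SCD2, 0.43 ± 0.26, with a 95% interval from -0.14 to 1.0. For CYP51 the interaction was 0.09 with an interval from -0.41 to 0.60, and for INSIG2 0.02 with an interval from -0.36 to 0.41, so differences of those sizes between genotypes were not detectable with 4 arrays per group.

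Other genes of fatty acid metabolism were read from a second list. Of 21 further fatty acid genes found, ADFP, a lipid droplet protein, fell in MEKK1+/+ (-0.50, adjusted p = 0.0184) and passed in 14 of 16 fits that left out 1 array, but not without the untreated MEKK1+/+ arrays numbered 1 or 3 (adjusted p = 0.0573 and 0.0508). ACSL4, which activates long fatty acids, rose in both genotypes (0.38, adjusted p = 0.0396, and 0.39, adjusted p = 0.0386), but these calls held in 7 and 8 of the 16 fits that left out 1 array and did not hold as deposited (0.05, adjusted p = 0.798, and 0.36, adjusted p = 0.953). PPARG, the nuclear receptor of fat cells, fell under the MEKK1-/- label (-0.61, adjusted p = 0.00286, and 0.382 as deposited) and had -0.33 (adjusted p = 0.0826) in MEKK1+/+. It was above background on 8 of 16 arrays, and its mean under the MEKK1-/- label went from 7.65 untreated to 7.04, below background, with conditioned medium. MLXIPL, near background, rose in MEKK1+/+ (0.18, adjusted p = 0.047), but passed in 1 of 16 fits that left out 1 array, and the sign turned on values as deposited (-0.11).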

How the data were processed

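RNA of 16 cultures was read on Illumina Mouse 8 arrays, 4 per group, with groups and replicate numbers from the labels. The authors deposited 1 intensity value per gene symbol and array on a linear scale, normalized by a core facility. How background was treated and how probes were combined is not given in the sources used here. The lowest and highest array medians were 114 and 170.1, and the values were log2 transformed and quantile normalized between arrays.

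The members, the lists and the tests were chosen with earlier results of these data known. The 4 groups were fitted together in limma 3.58.1 (R 4.3.3) with lmFit and eBayes and 12 residual degrees of freedom, and 5 comparisons were tested. P values were adjusted by Benjamini-Hochberg over all 18132 genes, with a threshold of 0.05. For single members an exact 2-sided permutation test was added, in which 4 against 4 arrays allow no p below 0.0286. Groups without overlap always give that p. The steps were tested on simulated data for conditioned medium against untreated in MEKK1+/+ with 18132 genes. With a log2 change of 1 in 100 genes, 89 were recovered, with 0.6 in another 100, 62 were recovered, and 7 unchanged genes were called. The changed genes were drawn from those above the median level, and the simulated noise was independent between genes and arrays. Members that vary together on an array were not simulated, so these counts may not hold for them.

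Values on every array are given for members past the threshold in any comparison, members without overlap in both treatment or both genotype comparisons, INSIG1, SREBF1, and in each role the member with the largest difference in each treatment comparison. Of the further fatty acid genes, those past the threshold are named. Members given by their differences alone were chosen after their values were seen. Some further sterol genes are not reported here. No array was left out, 0 columns were identical, and correlations within groups were 0.979 to 0.996. The number of arrays limits the precision.

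Same-numbered untreated and conditioned arrays labelled MEKK1-/- correlated, after group means were removed, by 0.505, 0.403, 0.219 and 0.251, all above 0.1, so their numbers were taken as pairs. The pairing comes from this check and not from the labels. Same-numbered arrays of different genotypes, which cannot share a mouse, gave -0.575 to 0.234. The value of 0.219 lies inside that range and 0.251 just above it, so the pairing, and the calls with the block, remain uncertain. MEKK1+/+ arrays (-0.0379, 0.485, 0.12 and 0.576) did not pass the rule. With p values of cultures that may share a mouse, the spread is partly technical.

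Marker lists were read for 6 cell types. For conditioned medium against untreated in MEKK1+/+ and under the MEKK1-/- label the median log2 differences were 0.03 and 0.01 (fibroblast), 0.01 and -0.04 (fat cell), -0.01 and -0.01 (macrophage), -0.08 and -0.07 (epithelial), 0.01 and 0.01 (endothelial), and 0.01 and 0.04 (lymphocyte). Single markers moved more than these medians. The 12 fibroblast markers ranged from -0.33 to 0.95 in MEKK1+/+, with 4 lower and 8 higher. Under the MEKK1-/- label they ranged from -0.32 to 1.00, with 6 lower and 6 higher. PDGFRA rose in both genotypes (limma adjusted p = 0.0256 and 0.0204), and the lymphocyte marker LCK rose under the MEKK1-/- label (0.44, adjusted p = 0.0188). Alternatives were the values as deposited, arrays shifted to the same median, the z-test of the study's methods (on z-scores), array weights, eBayes with both trend and robust set, a fit of just the 2 groups compared, a floor at 64, a pseudocount of 16, a filter at the median level, replicate blocks over all arrays or within genotype, and 1 array left out at a time. Leaving out both arrays numbered 1 under the MEKK1-/- label was chosen after seeing the data. Member symbols were matched to the RefSeq table of GRCm38.p6, 32 by symbol and 1 by an older symbol, and promoter sequences were taken from RefSeq.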

Additional observations from a re-analysis of the deposited data

Results flagged for a closer look

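Within groups of 4 arrays, each of the 33 members was checked for a lowest or highest array whose gap to its neighbour passed the 95% critical value of Dixon's test. Of 132 sets 14 had such an array, where the nominal rate for independent sets is about 1 in 20. Members varied together on an array and the share over all genes was not computed, so no excess is read from this count. On the untreated array numbered 1 under the MEKK1-/- label, 5 members were flagged as low: FDPS at 12.64 (next 13.25), CYP51 at 9.64 (next 10.21), INSIG1 at 7.98 (next 8.19), DHCR7 at 7.56 (next 8.38) and FADS2 at 8.24 (next 8.50). This array also carried the epithelial markers, whose part in the low values was not tested.

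On the untreated MEKK1+/+ array numbered 4, FDPS was low at 12.88. With conditioned medium in MEKK1+/+, IDI1 was high at 7.65, SCD1 at 12.52 and MYLIP at 6.79 on the array numbered 3, and on the array numbered 2 INSIG1 was high at 8.07 and ABCG1 low at 7.34. With conditioned medium under the MEKK1-/- label, MVD was high at 9.38 on the array numbered 2, and PMVK at 8.21 and ABCA1 at 6.67 were low on the array numbered 1. No interaction of genotype with conditioned medium passed the threshold for a member.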

How the results depend on the processing

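In MEKK1+/+, the count of 6 members past the threshold was 13 with the z-test and 3 to 8 with 1 array left out, and lowest without the untreated arrays numbered 2 or 3. SQLE, NSDHL and INSIG2 passed in each of those 16 fits, CYP51 in 14, FDPS in 8 and SCD2 in 5. The median of -0.20 was -0.55 on values as deposited and -0.25 to -0.17 with 1 array left out. Under the MEKK1-/- label, the count of 3 was 0 on values as deposited and with arrays shifted to the same median, 7 with the z-test, 6 with only genes above the median level, 9 with array weights, 6 with the replicate block within genotype, 9 with both arrays numbered 1 left out and 1 to 9 with 1 array left out. It was 5 without the untreated MEKK1+/+ array numbered 4. CYP51 passed there in 10 of the 16 fits and INSIG1 in 5. For most of these settings the share of all genes past the threshold is not given, so the counts show only how the calls of members moved. Between genotypes, the count of 0 was 1 with the z-test in each condition. The median in untreated cells was -0.29 with arrays shifted to the same median, and with conditioned medium it was 0.13 as deposited and -0.18 with that shift. The interaction had a median of 0.04, of 0.39 as deposited, where all genes moved by 0.29, and of -0.05 to 0.13 with 1 array left out. MLXIPL in MEKK1+/+ reversed to -0.11 as deposited. The replicate block over all arrays gave counts of 5 and 3 for conditioned medium. A mean of rows per symbol was not run, since 0 symbols had more than 1 row. The causes were not tested.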
